A study of Mus musculus and Mus musculus
Oryx dammah with 30 samples.

Results

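The spindle checkpoint and mitosis genes are 40 genes, chosen by name, that encode the checkpoint proteins, the mitotic kinases, CDK1 with its cyclins and regulators, the anaphase-promoting complex (APC/C) with the machinery that releases cohesin, kinetochore proteins, and proteins of the spindle and of cytokinesis. All 40 were found among the 53023 genes of the four-cell table and of the replication table, and among the 55364 genes of the two-cell table. Mad2l1bp was put on the list for its sensitivity to α-amanitin, so its differences in both α-amanitin experiments describe the choice and are given without a test. The study transferred C2C12 cells, a myoblast line of the C3H mouse strain, into BDF1 (C57BL/6 × DBA/2) embryos whose division demecolcine arrested. It asked which genes the nuclear transfer (NT) embryos transcribe. Not all recipients were at the G2/M phase at transfer. The paper places transfer to early two-cell embryos, and part of its replication experiment, before DNA replication. RNA was sequenced from pools of whole embryos, so transcripts of the recipient blastomeres and of the donor nuclei were measured together.

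Four-cell NT embryos received donor cells from 46 hours post insemination (hpi) and were cultured for 24 h in 0.1 μg/ml demecolcine, with α-amanitin (3 libraries) or without it (3 libraries), each library being a pool of 3 embryos. Two-cell NT embryos received donor cells from 21 hpi (early) or from 30 hpi (late) and were cultured for 24 h in the same demecolcine concentration, with α-amanitin (6 libraries) or without it (6 libraries), in pools of 5 embryos. The column names of the two-cell table give the α-amanitin status but not the recipient stage. They form a set of 6 columns that carry the letter R and a set of 6 that do not, and which set is early or late is not known. In the replication experiment the groups D and DR (3 libraries each, pools of 4 embryos) were also four-cell C2C12 NT embryos in demecolcine, without α-amanitin, and the letters are not explained in the labels. Demecolcine was therefore present in every group, controls included, and no group without it was used here. C2C12 is a single cell line, so donor variation was not sampled.

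Polymerase II, the enzyme that makes messenger RNA, is inhibited by α-amanitin, so a transcript that depends on new transcription should be lower with it. The FPKM used here are shares of a library, so a transcript with a higher value without α-amanitin need not have depended on new transcription. The spindle assembly checkpoint is the signalling system that holds cells in mitosis until every kinetochore is attached to spindle microtubules. Ttk and Bub1 kinases act at unattached kinetochores, Mad1l1 brings Mad2l1 there, and the complex of Mad2l1, Bub1b and Bub3 with Cdc20 keeps the APC/C inactive. Mad2l1bp, also known as p31comet, binds Mad2l1 and takes that complex apart, and demecolcine, which depolymerises microtubules, keeps the checkpoint engaged. In the mouse embryo most of these proteins are first made from transcripts stored in the oocyte, and the zygotic genome is activated mainly at the two-cell stage.

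Upstream sequence was compared because genes of mitosis often share promoter elements, the CCAAT box and the cell cycle genes homology region (CHR). RefSeq promoters of GRCm38.p6, read over the 250 bases before the transcription start, were found for 32 of the 40 members. On either strand, CCAAT was present for 21 of them (65.6%) against 37.5% of 27025 genes, and TTTGAA, the core of the CHR, for 6 (18.8%) against 18.3%. Both motifs were present in the promoters of 6 members (18.8%) against 6.45% of all genes. TTCCCGC, a form of the E2F site, was found for 1 member, Plk4 (3.12%), against 4.38%. These matches are descriptions of letters in a window. The promoters below are those of Mad2l1bp, the member with the largest difference, and of 5 of the 6 other members that passed the test in both column sets of the two-cell embryos, written 5′ to 3′ with matches of both motifs on either strand in capitals, so that a CCAAT box of the opposite strand reads ATTGG, and the remaining one, Wee1, had no promoter entry.
Mad2l1bp, chr17:46153552-46153801, minus strand: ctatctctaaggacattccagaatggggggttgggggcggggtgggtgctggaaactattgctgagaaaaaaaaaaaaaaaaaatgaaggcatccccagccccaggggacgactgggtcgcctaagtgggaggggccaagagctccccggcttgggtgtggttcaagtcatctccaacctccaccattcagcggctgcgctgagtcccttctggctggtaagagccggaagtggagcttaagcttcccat
Aurka, chr2:172370571-172370820, minus strand: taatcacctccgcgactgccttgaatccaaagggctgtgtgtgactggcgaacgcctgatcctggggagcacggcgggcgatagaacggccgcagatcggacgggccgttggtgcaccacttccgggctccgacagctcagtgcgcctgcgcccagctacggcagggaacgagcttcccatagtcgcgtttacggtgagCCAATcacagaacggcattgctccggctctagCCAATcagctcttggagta
Cdk1, chr10:69352913-69353162, minus strand: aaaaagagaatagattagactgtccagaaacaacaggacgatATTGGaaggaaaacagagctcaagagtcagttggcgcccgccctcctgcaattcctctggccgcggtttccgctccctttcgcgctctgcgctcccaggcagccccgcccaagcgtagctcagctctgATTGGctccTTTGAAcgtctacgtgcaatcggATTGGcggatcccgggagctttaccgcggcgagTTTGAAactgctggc
Cdc20, chr4:118437344-118437593, minus strand: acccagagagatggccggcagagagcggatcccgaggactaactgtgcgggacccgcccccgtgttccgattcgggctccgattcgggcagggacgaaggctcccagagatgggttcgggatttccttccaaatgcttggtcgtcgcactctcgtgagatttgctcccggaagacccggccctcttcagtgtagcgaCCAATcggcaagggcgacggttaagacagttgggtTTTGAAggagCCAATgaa
Plk1, chr7:122159185-122159434, plus strand: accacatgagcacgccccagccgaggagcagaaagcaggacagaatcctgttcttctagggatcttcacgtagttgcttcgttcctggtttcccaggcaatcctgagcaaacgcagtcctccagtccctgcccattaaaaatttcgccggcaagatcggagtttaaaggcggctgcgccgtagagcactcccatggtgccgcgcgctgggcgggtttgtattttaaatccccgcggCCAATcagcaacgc
Birc5, chr11:117848987-117849236, plus strand: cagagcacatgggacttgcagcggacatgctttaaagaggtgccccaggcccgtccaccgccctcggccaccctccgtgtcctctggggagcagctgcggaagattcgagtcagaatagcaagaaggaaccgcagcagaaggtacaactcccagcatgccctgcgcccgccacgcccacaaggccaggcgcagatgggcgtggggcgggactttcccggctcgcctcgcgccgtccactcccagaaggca
CCAAT was present upstream of Aurka, Cdk1, Cdc20 and Plk1, and TTTGAA upstream of Cdk1 and Cdc20. The windows of Mad2l1bp and Birc5 held none of the 3 motifs in these letters. Capitals mark letter matches only, and binding was not measured.

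Library depth was 1136771 to 3101002 reads in the four-cell experiment, 4364337 to 10060476 in the two-cell experiment and 2602782 to 19170646 in the replication experiment. In the two-cell experiment the 3 α-amanitin libraries with R stood apart from the other 9. The summed FPKM of 10 oocyte and early embryo markers was 1150 to 1590 in them, against 6760 to 7760 in the α-amanitin libraries without R and 7270 to 12300 in the untreated libraries. The single markers went the other way: with R 7 of the 10 passed as lower without α-amanitin and 2, Dppa3 and Zp3, as higher, with a median log2 change of -1.68, and without R 3 passed as lower and 0 as higher, with a median of -1.0. Scaled to spike-ins, over all libraries, 0 passed as lower and 2, Dppa3 and Khdc3, as higher. Spike-in RNA made up 8.77% to 11.2% of their total, against 6.54% to 8.93% in the α-amanitin libraries without R, 3.15% to 6.26% in the untreated libraries without R and 2.38% to 2.81% in those with R. FPKM are shares of a library, so a loss of RNA common to all genes is hidden in them, and two-cell results are given within each column set, over both sets, and after scaling to 47 spike-ins. The part of these shifts in the results of the set with R was not tested. In bulk samples fewer cells of a kind and less RNA per cell cannot be told apart. Summed FPKM of 9 cumulus and granulosa markers was at most 2.69 in any library. Of 9 markers of the C2C12 donor, the sum was 0.336 to 34.3, and Pax7 and Cav3 were at 0 in all 6 four-cell libraries. Msc, another of them, was at 4.14, 3.43 and 4.00 FPKM in untreated and at 0 in all treated four-cell libraries. Although it was 1 of the 4 that reached an FPKM of 1 in 3 or more libraries there, it did so only through the untreated ones. Its difference is thus given without a test. Of 7 fibroblast and mesenchyme markers the sum was 2.62 to 8.68 in four-cell libraries, and at two-cell it was 95.0 to 279 untreated against 53.8 to 72.5 treated without R, and 23.1 to 95.1 against 34.9 to 48.4 with R, where Col3a1 and Fn1 passed as higher without α-amanitin in both sets and Postn as lower with R, of 4 tested in each set. The part of this shift in the members' two-cell differences was not tested.

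At four-cell, Mad2l1bp was the member that differed most between the groups, and it was the most abundant member without α-amanitin. Mad2l1bp (ENSMUSG00000034509.8, chromosome 17 of mm10, 46147390 to 46153553, minus strand) had an FPKM of 801, 742 and 345 in the untreated libraries and 8.43, 25.4 and 28.4 in the α-amanitin libraries. The groups were far apart, with 802 to 2198 reads against 17 to 100. The log2 change of FPKM + 1 was 4.93 (SE 0.49), a 30.4-fold difference on that scale, given as a description since the gene is on the list for it.

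**Figure D1:**
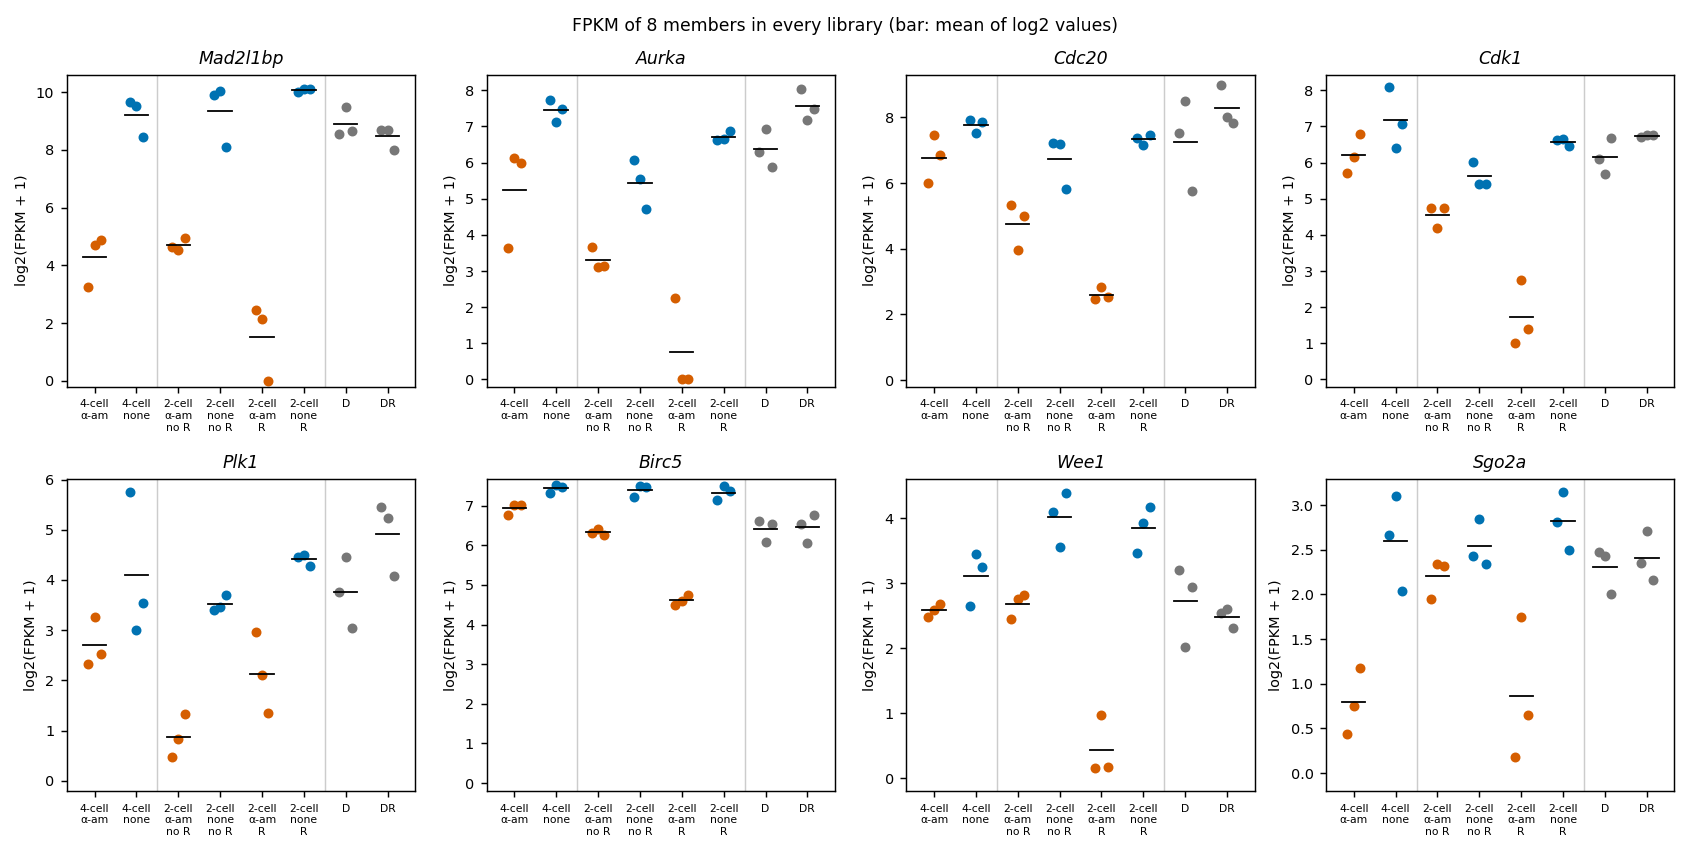
FPKM of 8 members in each of the 24 libraries, as log2(FPKM + 1) on the vertical axis of each panel, by experiment and group: α-amanitin-treated libraries in orange, untreated libraries in blue, the groups D and DR in grey, points for libraries and bars for the mean of the log2 values. Mad2l1bp is high in all untreated libraries of both stages and in D and DR, and Cdk1, Cdc20 and Aurka are lowest in the α-amanitin libraries with R.

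All 40 members reached an FPKM of 1 in 3 or more libraries. Of the 39 members other than Mad2l1bp, 2 passed as higher without α-amanitin (5.13%) and 0 as lower in limma with Benjamini-Hochberg adjustment, where 11.1% and 1.13% of all 9884 genes tested passed. The share of these members that passed was thus not above the share of all genes. No spike-ins were found in the four-cell libraries, so a loss of RNA common to all genes could not be scaled for at this stage. Their median log2 change was 0.42, against 0.37 for all genes. With libraries scaled by the median of ratios, members higher in the fit went from 30 to 21 of 39, and their median from 0.42 to 0.20, beside 0.13 for all genes, and then 0 passed as higher and 1, Pttg1, as lower. In 11 of the 39 (28.2%) every untreated library was above every α-amanitin library, as in 27.6% of all genes, and in 1, Pttg1, every untreated library was below them, as in 7.56%.

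None of the other 6 checkpoint members passed. Mad2l1, its binding partner, was at a mean FPKM of 92.4 ± 21.9 (SD, n = 3) in untreated and of 80.5 ± 37.7 in treated embryos, with overlapping libraries and a log2 change of 0.28 (SE 0.37, adjusted p = 0.651, limma). The log2 changes of the remaining 5, Mad1l1, Bub1, Bub1b, Bub3 and Ttk, were -0.06, 0.18, 0.17, 0.73 and 1.21, and none passed the test. Mad2l1bp made up 12.4% to 25.9% of the members' summed FPKM in untreated four-cell libraries and 0.514% to 1.20% in treated ones. The treated libraries also held more of the stored oocyte transcripts, with a summed FPKM of 11 oocyte and early embryo markers of 12200 to 16100 against 8970 to 9970 and 1 of the 11, Zp3, passing as lower without α-amanitin, and the part of this shift in the members' differences was not tested.

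Among the mitotic kinases, Aurka passed. Aurka encodes Aurora A, which matures centrosomes and builds the spindle, and lies on chromosome 2 of mm10 from 172356190 to 172370535 on the minus strand. Its FPKM was 210, 179 and 138 without α-amanitin and 69.2, 62.9 and 11.4 with it, so that the groups did not overlap. The log2 change was 2.19 (SE 0.60, adjusted p = 0.0479, limma), but the adjusted p-value rose to 0.163 without library S7, 0.144 without S17, 0.123 without S15 and 0.0585 without S18, and Aurka passed in 3 of the 10 alternatives. The kinases Aurkb, Aurkc, Plk1 and Plk4, of which Plk4 drives centriole duplication, had log2 changes of 0.07, -0.45, 1.39 and 1.45 without passing.

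Sgo2a, a shugoshin that protects centromeric cohesin, was the other member to pass. Its FPKM was 7.58, 3.12 and 5.35 without α-amanitin and 0.69, 1.26 and 0.359 with it. These rest on 40 to 121 reads and on 4 to 15 reads, and the opposite-strand gene Kctd18, which shares exon bases with it, had an FPKM of 0.149 to 1.18 in the same libraries. The log2 change was 1.81 (SE 0.44, adjusted p = 0.0332, limma), and it passed in none of the 10 alternatives (adjusted p between 0.0514 and 0.186). Its relative Sgo1 had a log2 change of 1.30 (adjusted p = 0.0939, limma).

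Ccnb1 and Pttg1 were abundant in both groups. Ccnb1, cyclin B1, was at a mean FPKM of 400 ± 23.6 (SD, n = 3) in untreated and of 471 ± 156 in treated embryos, and Pttg1, securin, the inhibitor of separase, had 258 ± 71.7 and 432 ± 40.3. With α-amanitin these were the most abundant members, with overlapping ranges, and Mad2l1bp ranked 20. Without it the order was Mad2l1bp, Ccnb1, Pttg1, Cdc20 and Aurka, and the libraries of Mad2l1bp (345 to 801) overlapped those of Ccnb1 (372 to 413). Pttg1 had a log2 change of -0.78 (SE 0.25, adjusted p = 0.078, limma), which did not pass, and it passed as lower without α-amanitin in 1 of the 10 alternatives, median-of-ratios scaling (log2 change -1.09, adjusted p = 0.0372). Cdc20, which activates the APC/C, had an FPKM of 183, 229 and 243 without α-amanitin and 177, 115 and 62.7 with it. The groups nearly met, and its log2 change of 0.99 did not pass (adjusted p = 0.107, limma).

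None of the 8 members of the CDK1 group, of the 7 of the kinetochore group or of the 6 of the passenger, spindle and cytokinesis group passed at four-cell, and their median log2 changes were 0.25, 0.22 and 0.70. Tpx2, the spindle protein that activates Aurora A, was closest, with an FPKM of 42.3, 45.9 and 66.0 without α-amanitin, 30.3, 19.9 and 8.88 with it, and a log2 change of 1.47 (adjusted p = 0.0616, limma). Without α-amanitin library S16 the members that passed beside Mad2l1bp were 6: Aurka, Cdc20, Ttk, Cdc25a, Sgo1 and Tpx2. Without S8 it was Aurka alone, and without S18, S15, S17 or S7 it was 0, so the count rests on single libraries.

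**Figure D2:**
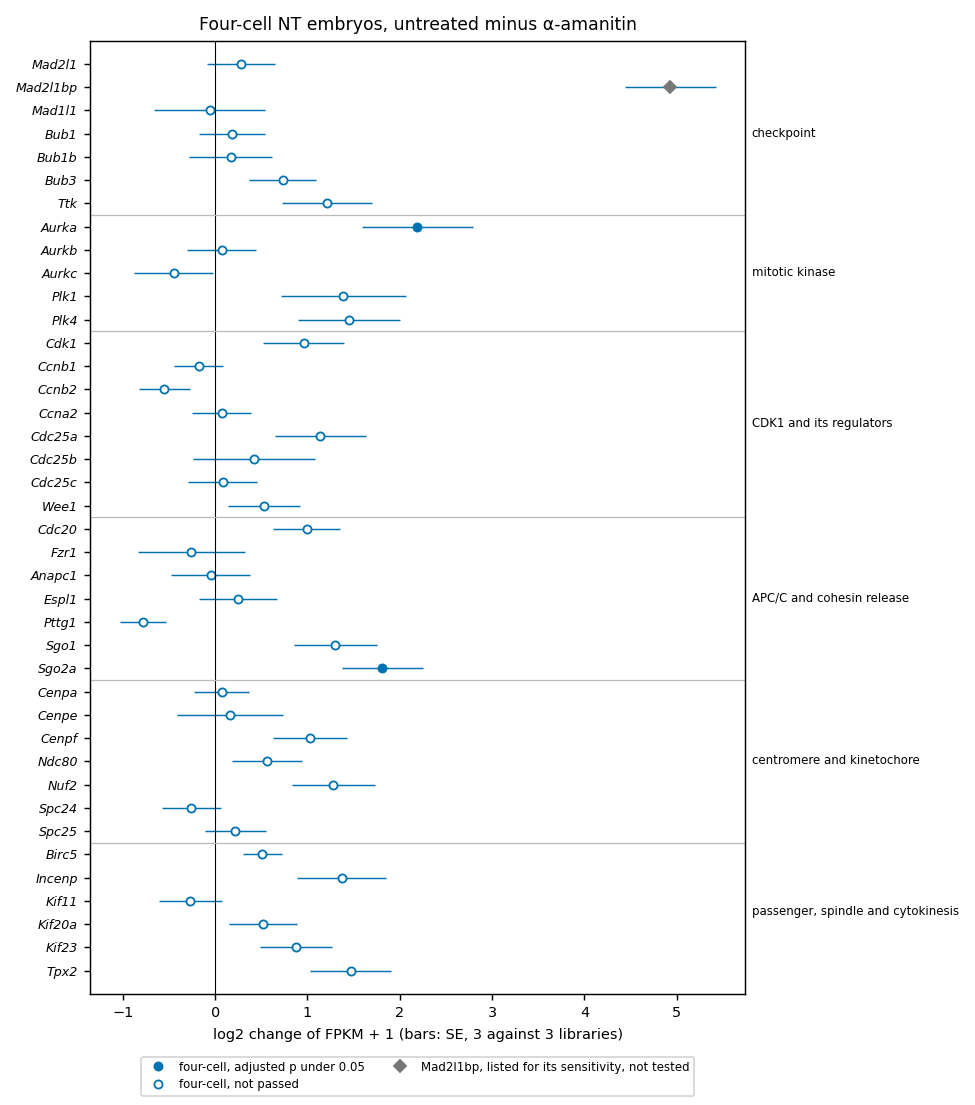
Fitted log2 change of FPKM + 1 (horizontal axis, untreated minus α-amanitin) of the 40 members in four-cell NT embryos, ordered by role, with bars for the SE over 3 against 3 libraries. The grey diamond at 4.93 is Mad2l1bp, which is on the list for this contrast and has no test, filled points passed an adjusted p-value under 0.05 (Aurka at 2.19 and Sgo2a at 1.81), and the other points are open.

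Other genes of the same machinery, 79 genes in 7 lists that hold none of the members, were compared beside them. Of the 74 that were tested at four-cell, 10 passed as higher without α-amanitin (13.5%) and 1 as lower, beside 11.1% and 1.13% of all genes, and their median log2 change was 0.34, beside 0.37. These shares are close to those of all genes. Cdkn1a, the p53 target that encodes the CDK inhibitor p21, had an FPKM of 241, 99.3 and 239 without α-amanitin and 13.6, 14.6 and 13.0 with it, a log2 change of 3.61 (adjusted p = 0.00249, limma). Fbxo5, which encodes the APC/C inhibitor Emi1, had 73.8, 83.8 and 63.3 against 6.92, 2.20 and 0, a log2 change of 4.66 (adjusted p = 0.00723). The microtubule-binding kinetochore gene Ska3 followed with a log2 change of 3.34 (adjusted p = 0.00786). The condensin genes Ncapg and Smc2 and Cdca5, which encodes sororin, changed by 2.57, 2.04 and 2.37, the kinetochore genes Mis12, Zwint and Zw10 by 2.33, 1.32 and 1.90, and the APC/C gene Cdc27 by 1.49. Without library S15 or S7 only Cdkn1a and Fbxo5 of these passed, and without S17 Ska3 as well. Anapc5, another APC/C subunit, was lower without α-amanitin by a log2 change of -1.27 (adjusted p = 0.0422), with an FPKM of 20.0, 20.6 and 25.6 against 44.9, 42.6 and 84.5, and it passed in 2 of the 10 alternatives, with adjusted p-values up to 0.161 (limma).

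In two-cell NT embryos Mad2l1bp again had the highest mean FPKM of the members without α-amanitin, and it had the largest fitted difference of the 40. In the set without R its FPKM was 959, 1060 and 273 untreated and 23.7, 22.2 and 30.0 with α-amanitin, and in the set with R it was 1030, 1100 and 1100 untreated and 4.49, 3.38 and 0 with it. The lowest untreated library, NT3 at 273, was still above the highest treated library at 30.0, and in NT3 alone Pttg1 (589) and Ccnb1 (395) lay above Mad2l1bp. The log2 change was 4.65 (SE 0.48) without R and 8.54 (SE 0.59) with R, a difference between the sets of 3.89 (SE 0.84), and over all 12 libraries it was 6.59 (SE 0.75).

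Counts at two-cell are given over the 39 members other than Mad2l1bp. Over all 12 libraries 21 of them were higher without α-amanitin (53.8%) and 2 lower, where 38.9% of 17196 genes were higher and 8.51% lower. Their median log2 change was 1.06, against 0.67 for all genes. With median-of-ratios scaling 12 members were higher and 3, Cenpf, Nuf2 and Plk4, lower, against 3768 and 2443 of all genes, whose median was then 0.24. Within the set without R, 6 members were higher (15.4%) and 0 lower, against 12.7% and 4.18% of 14285 genes, and the medians were 0.34 and 0.26. Within the set with R, 32 were higher (82.1%) and 2 lower, against 60.5% and 16.4% of 14387 genes, and the medians were 2.01 and 1.31. The share of members that passed was highest in the set in which the share of all genes was highest. The difference between sets passed for 28 members, 26 of them more positive in the set with R, and 2, Plk4 and Nuf2, more negative there, where 36.0% of all genes were more positive and 8.46% more negative. Scaled to spike-ins it passed for 30 members, all more positive with R, where 50.5% of all genes were more positive and 2.72% more negative. Scaled to spike-ins, 37 members were higher over all libraries and 0 lower, against 71.4% of genes higher and 1.63% lower, with a median of 2.20 beside 1.49, and the other 2 were Plk4 and Nuf2. After that scaling 15 members passed as higher without R and 36 with R, against 31.5% and 80.5% of genes, and 0 as lower in either set, against 0.77% and 5.45%. Every untreated library was above every treated one for 10 members over all libraries (16.3% of all genes), for 12 without R (26.8%) and for 32 with R (61.5%), and below for 1 (2.95%), 3 (11.2%) and 2 (17%).

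Beside Mad2l1bp, the 6 members that passed in both column sets were Aurka, Cdc20, Cdk1, Plk1, Birc5 and Wee1, and each was also higher over all libraries and in all 23 alternatives. Aurka had an FPKM of 66.5, 45.6 and 25.2 untreated and 11.7, 7.71 and 7.88 with α-amanitin in the set without R, and of 97.2, 99.1 and 117 untreated and 3.81, 0 and 0 with it in the set with R. The log2 changes were 2.13 (adjusted p = 0.012) and 5.96 (adjusted p = 7.94e-05, limma), so the treated libraries lay below the untreated ones in both sets, with the lower values in the set with R.

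Cdk1, the kinase that drives entry into mitosis, was at 64.2, 41.4 and 41.7 FPKM untreated and 25.9, 17.3 and 25.6 with α-amanitin without R, and at 97.1, 99.7 and 87.1 untreated and 1.03, 5.74 and 1.65 with it with R. Its log2 change was 1.06 (adjusted p = 0.0363) without R and 4.85 (adjusted p = 5.14e-05) with R. Wee1, the kinase that inhibits Cdk1, was higher in the same direction, by 1.34 (adjusted p = 0.0244) and 3.42 (adjusted p = 7.62e-05, limma). Its FPKM was 16.1, 10.7 and 20.0 untreated and 4.47, 5.76 and 6.01 treated without R, and 10, 14.2 and 17.1 against 0.108, 0.961 and 0.126 with R, so kinase and inhibitor were both lower in every treated library than in any untreated one.

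Cdc20 was at 149, 146 and 55 FPKM untreated and 39.4, 14.7 and 30.8 with α-amanitin without R, and at 165, 141 and 176 untreated and 4.5, 6.12 and 4.75 with it with R. The log2 changes were 1.98 (adjusted p = 0.0304) and 4.73 (adjusted p = 5.43e-06, limma). The opposite-strand gene Elovl1, with which it shares exon bases, had an FPKM of 0.229 to 6.70 in these libraries.

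Plk1, which acts at centrosomes, kinetochores and in cytokinesis, was the only one of the 6 for which the difference between the sets did not pass. Its FPKM was 9.62, 9.96 and 12 untreated and 0.386, 0.78 and 1.52 with α-amanitin without R, and 20.9, 21.7 and 18.3 untreated and 6.80, 3.30 and 1.54 with it with R. The log2 changes were 2.64 (adjusted p = 0.00546) and 2.27 (adjusted p = 0.00136), and they differed by -0.37 (SE 0.52, adjusted p = 0.59, limma). Birc5, survivin, the member of the passenger complex that binds the centromere, changed by 1.07 (adjusted p = 0.0109) and 2.72 (adjusted p = 2.31e-05), from 149, 180 and 175 FPKM untreated to 78.4, 84.7 and 75.0 treated without R, and from 139, 179 and 163 to 21.7, 23.0 and 25.7 with R.

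**Figure D3:**
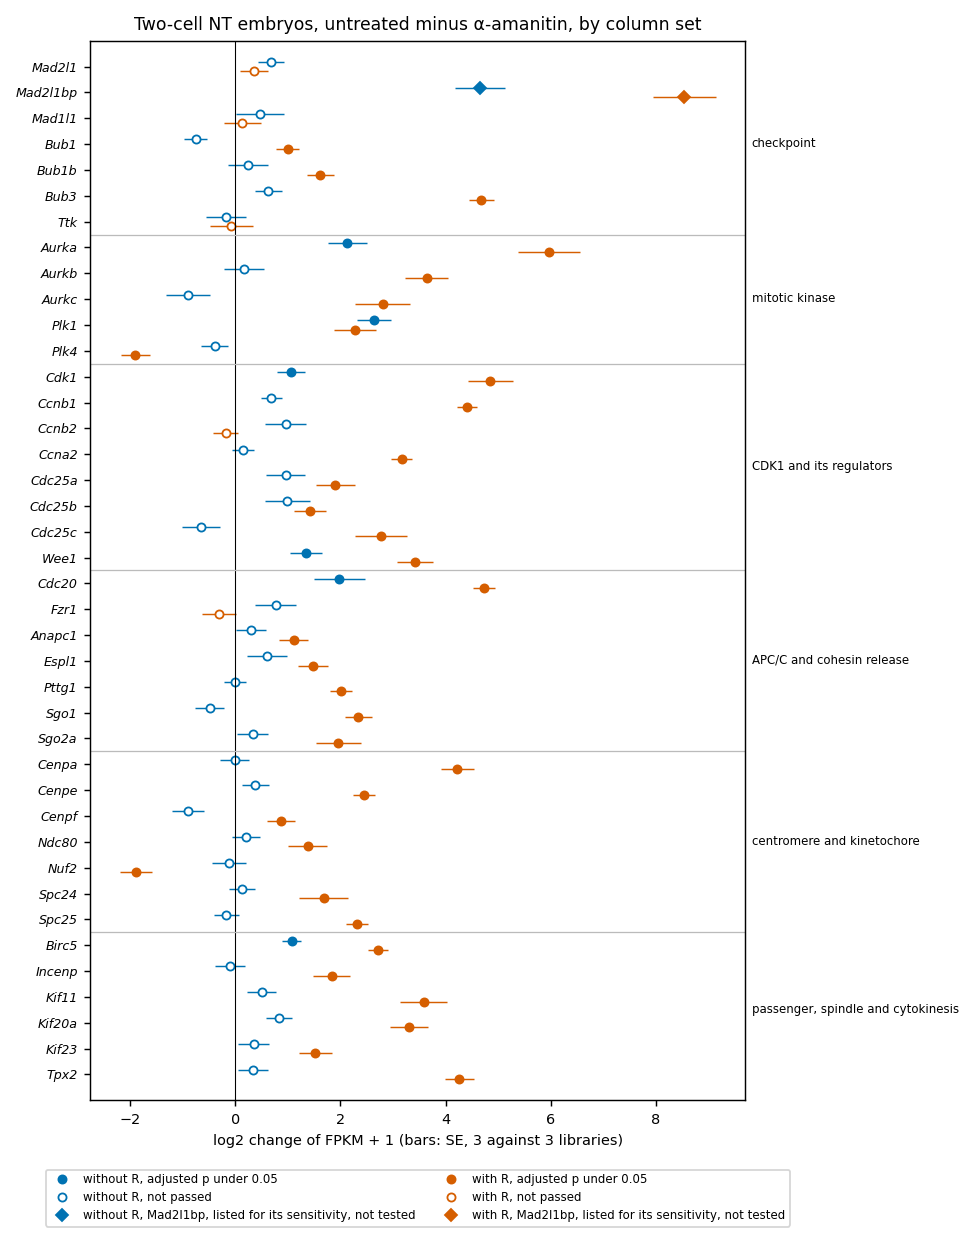
Fitted log2 change of FPKM + 1 (horizontal axis, untreated minus α-amanitin) of the 40 members in two-cell NT embryos, in the column set without R (blue) and with R (orange), ordered by role, with bars for the SE over 3 against 3 libraries and filled points for an adjusted p-value under 0.05. Diamonds are Mad2l1bp, which has no test, and beside them 6 circles are filled without R and 34 with R, of which Plk4 and Nuf2 lie below 0.

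A further 26 of the 39 members (66.7%) passed as higher in the set with R but not in the set without R, as did 52.6% of the 12788 genes tested in both sets. The difference between the sets itself passed as more positive with R for 21 of these members (80.8%), as for 69.9% of such genes. Scaled to spike-ins, 21 members (53.8%) passed with R and not without R, beside 53.7% of genes, so that the share of members was then that of all genes. On that scale 7 of the 26, Bub3, Ccnb1, Cdc25a, Cdc25b, Cenpe, Kif20a and Pttg1, passed as higher in both sets, and the values and p-values that follow are on FPKM as deposited. Bub3, the partner of Bub1 and Bub1b, was at 28.6, 24.6 and 24.8 FPKM untreated and 0.0151, 0 and 0.143 with α-amanitin with R, a log2 change of 4.68 (adjusted p = 7.36e-06), and at 17.2, 12.3 and 12.4 against 8.92, 7.93 and 8.93 without R (0.63, adjusted p = 0.122). Cenpa, the histone H3 variant that marks centromeres, was at 91.4, 80.4 and 72.1 against 5.30, 3.50 and 1.97 with R (4.22, adjusted p = 2.43e-05) and at 62.3, 79.9 and 41.8 against 62.0, 69.0 and 49.5 without R (-0.01, adjusted p = 0.988). Without R the treated libraries of Cenpa lay among the untreated ones, and those of Bub3 lay below them without passing. The 3 treated values of Bub3 with R rest on 0 to 7 reads. Bub1, the kinase that recruits the checkpoint proteins to kinetochores, was at 17.6, 14.0 and 16.7 FPKM untreated and 30.9, 26.6 and 25.8 treated without R, and at 25.2, 33.1 and 28.1 and 14.4, 15.7 and 11.5 with R. Every untreated library of Bub1 was thus below the treated ones without R (-0.75, adjusted p = 0.0513) and above them with R (1.00, adjusted p = 0.00433, limma). Scaled to spike-ins, the log2 change of Bub1 was 0.04 without R and 2.86 with R, so the lower level of the untreated libraries without R was not seen on that scale. Bub1b, the checkpoint protein BubR1, was low throughout, at 3.83, 4.16 and 7 FPKM untreated and 3.72, 6.40 and 2.37 treated without R and at 6.09, 4.48 and 5.54 against 1.24, 0.742 and 1.24 with R (1.62, adjusted p = 0.00066). Cenpf, a kinetochore protein that is made late in the cell cycle, had the same order as Bub1, at 4.99, 5.48 and 6.73 against 10.6, 16.3 and 8.71 without R (-0.90, adjusted p = 0.0776) and at 10.2, 11.0 and 7.94 against 5.42, 5.37 and 3.74 with R (0.87, adjusted p = 0.015, limma), and -0.16 and 2.55 scaled to spike-ins. Cenpe, the kinetochore motor, was at 38.6, 45.9 and 39.8 against 33.3, 41.0 and 23.0 without R and at 67.4, 86.1 and 72.8 against 13.8, 14.4 and 11.1 with R (2.44, adjusted p = 4.51e-05, limma).

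The cyclins Ccnb1 and Ccna2 had log2 changes of 4.40 (adjusted p = 5.24e-06) and 3.16 (adjusted p = 1.61e-05) with R, and of 0.68 and 0.15 without R, where neither passed. For Ccnb1 the treated libraries were at 27.2, 28.9 and 23.0 FPKM with R and at 329, 296 and 303 without R, against 395 to 633 in the 6 untreated libraries. Ccna2, cyclin A2, was at 116, 116 and 91.1 FPKM untreated and 112, 96.9 and 82.8 treated without R, and at 117, 122 and 125 and 11.8, 11.2 and 15.4 with R. As shares of a library, the treated levels of both cyclins lay closer to the untreated ones without R than with R. Scaled to spike-ins, Ccnb1 also passed without R, with a log2 change of 1.52 (SE 0.37, adjusted p = 0.0126, limma). Ccnb2, the second B-type cyclin, did not follow: its log2 change was -0.18 (adjusted p = 0.52) with R and 0.96 (adjusted p = 0.131) without R, with treated libraries between 15.1 and 30.0 FPKM throughout. The phosphatases that activate Cdk1, Cdc25a, Cdc25b and Cdc25c, had log2 changes of 1.90, 1.42 and 2.77 with R, all of which passed (adjusted p = 0.00206, 0.0036 and 0.00132, limma). Cdc25a was at 2.55, 2.56 and 1.63 FPKM untreated and 0.883, 1.30 and 0.0421 treated without R, and at 4.42, 3.61 and 6.62 and 0, 1.34 and 0.553 with R. Cdc25b was at 1.82, 1.16 and 3.93 and 1.25, 0.69 and 0 without R, and at 3.91, 1.81 and 2.86 against at most 0.71 with R. Both also passed as higher over all libraries, by 1.43 and 1.21, from levels of a few FPKM. Cdc25c was at 12.4, 16.3 and 6.15 and 20.8, 15.1 and 17.6 without R, with overlap, and at 20.9, 20.2 and 18.4 and 5.98, 0.99 and 1.02 with R.

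Tpx2 was at 105, 115 and 110 FPKM untreated and 4.39, 7.46 and 3.27 treated with R (log2 change 4.26, adjusted p = 1.91e-05), and at 64.2, 75.2 and 36.2 against 45.0, 46.6 and 41.0 without R (0.34, adjusted p = 0.45). The passenger genes Aurkb and Incenp, which encode the kinase and the scaffold of the complex that holds Birc5, had log2 changes of 3.64 and 1.83 with R and of 0.16 and -0.10 without R. Aurkb was at 20.1, 11.8 and 9.96 FPKM untreated and 9.51, 9.01 and 19.3 treated without R, and at 19.3, 16.5 and 22.2 and 0, 0.461 and 1.89 with R. Incenp was at 9.87, 9.74 and 11.1 and 7.5, 14.2 and 12.5 without R, and at 12.4, 13.0 and 11.0 and 4.60, 3.01 and 1.22 with R. Both overlapped between the groups without R and were apart with R. Aurkc, the germ cell counterpart of Aurkb, had log2 changes of 2.80 with R and -0.90 without R, where it did not pass (adjusted p = 0.174, limma). Its FPKM was 11.2, 8.33 and 3.41 untreated and 17.5, 15.5 and 9.72 treated without R, and 51.1, 28.3 and 31.8 and 8.98, 1.40 and 5.22 with R. The motors Kif11, Kif20a and Kif23, which separate spindle poles and organise the midzone, had log2 changes of 3.58, 3.31 and 1.52 with R and of 0.50, 0.83 and 0.35 without R. Kif11 was at 42.8, 34.7 and 22.4 FPKM untreated and 20.2, 23.8 and 23.4 treated without R, and at 36.2, 44.2 and 34.2 and 2.34, 5.00 and 0.71 with R. Kif20a was at 13.9, 13.8 and 12.4 and 8.19, 6.08 and 7.03 without R, and at 25.3, 23.0 and 22.7 and 1.61, 2.92 and 0.511 with R. Kif23 was at 12.4, 16.7 and 15 and 12.5, 14.8 and 7.56 without R, and at 16.2, 19.9 and 25.3 and 8.64, 7.09 and 4.17 with R. On FPKM as deposited all of these passengers and motors passed with R and none of them without R, where Kif20a passed once scaled to spike-ins.

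Of the genes of chromatid release, securin (Pttg1) was at 456, 535 and 470 FPKM untreated against 108, 152 and 105 treated with R (2.01, adjusted p = 9.69e-05), and at 412, 609 and 589 against 560, 465 and 565 without R (0.00, adjusted p = 0.997). Separase (Espl1), the protease it inhibits, had log2 changes of 1.48 with R (adjusted p = 0.00222, limma) and 0.61 without R. Its FPKM was 3.22, 2.51 and 3.14 untreated and 1.08, 0.905 and 3.37 treated without R, and 3.73, 2.77 and 3.28 and 0.931, 0.0337 and 0.769 with R, low values in every library. Sgo1 and Sgo2a changed by 2.34 and 1.96 with R, and Anapc1, the scaffold of the APC/C, by 1.11. Sgo1 was at 23.2, 26.8 and 39.5 FPKM untreated and 36.3, 54.6 and 35.6 treated without R, and at 47.5, 42.5 and 46.1 and 10.3, 5.92 and 8.79 with R. Anapc1 was low in both sets, at 4.33, 5.44 and 5.79 and 5.23, 3.57 and 3.44 without R, and at 4.49, 3.58 and 4.16 and 1.52, 1.97 and 0.709 with R. Fzr1, the alternative activator of the APC/C, passed in neither set, with log2 changes of -0.31 and 0.77.

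Plk4 and Nuf2 were lower without α-amanitin. Plk4 was at 6.17, 6.91 and 6.40 FPKM untreated and 29.3, 18.9 and 35.4 treated with R (log2 change -1.90, adjusted p = 0.000465), and at 7.28, 7.53 and 7.58 against 12.5, 8.05 and 10.2 without R (-0.39, adjusted p = 0.331). The untreated libraries were below the treated ones in both sets. Nuf2 was at 2.66, 3.20 and 3.85 against 17.9, 17.7 and 9.85 with R (-1.89, adjusted p = 0.000749) and at 4.72, 4.15 and 7.65 against 5.22, 8.15 and 4.76 without R, with overlap (-0.12, adjusted p = 0.826). Over all libraries the log2 changes were -1.15 (adjusted p = 0.0223) for Plk4 and -1.01 (adjusted p = 0.0372) for Nuf2, and Nuf2 did not pass when RAm1, RAm2, RAm3, NT1, NT2, r1, r2 or R3 was left out (adjusted p up to 0.0822, limma). Scaled to spike-ins, both calls were lost over all libraries and the direction turned, with log2 changes of 0.15 (adjusted p = 0.736) for Plk4 and 0.20 (adjusted p = 0.641) for Nuf2, and within the set with R they were -0.07 and -0.19, still below 0 without passing (adjusted p = 0.811 and 0.603, limma). Nuf2 forms 1 complex with Ndc80, Spc24 and Spc25, which links kinetochores to microtubules, and these 3 were higher with R by 1.38, 1.68 and 2.32 (adjusted p = 0.0102, 0.0115 and 5.81e-05, limma). Spc25, the most abundant of the 4, was at 66.1, 76.8 and 116 FPKM untreated and 99.1, 87.2 and 97.1 treated without R, and at 141, 137 and 146 and 27.4, 34.4 and 22.4 with R. Ndc80 was at 16.1, 12.8 and 14.9 and 11.2, 10.3 and 16.9 without R, and at 8.96, 12.1 and 17.2 and 2.32, 5.98 and 4.88 with R. Spc24 was at 13.5, 10.7 and 10.2 and 12.4, 9.64 and 9.21 without R, and at 14.9, 11.9 and 6.64 and 1.86, 5.77 and 1.45 with R. All 3 overlapped between untreated and treated libraries without R and did not with R, where the order was the reverse of that of Nuf2.

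On FPKM as deposited the members that passed in neither set, other than Ccnb2 and Fzr1, were Mad2l1, Mad1l1 and Ttk. Scaled to spike-ins, Mad2l1 and Ccnb2 passed as higher in both sets, Mad1l1 and Ttk with R, and Fzr1 in neither. Mad2l1 was at 62.1, 105 and 76.5 FPKM untreated and 44.4, 55.1 and 48.5 treated without R, and at 86.6, 88.8 and 116 against 59.3, 106 and 66.0 with R, so its range overlapped with R. Mad1l1 and Ttk stayed at or under 9.08 FPKM in every two-cell library, with log2 changes between -0.17 and 0.47. With R, Mad2l1bp and Mad2l1, whose products bind each other, thus had log2 changes of 8.54 and 0.36.

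Of the 76 other genes of the machinery tested at two-cell over all libraries, 36 were higher without α-amanitin (47.4%, beside 38.9% of all genes) and 2, Ncapg2 and Zw10, were lower, with a median log2 change of 0.89 beside 0.67. Without R 3 were higher (3.95%) and 3 lower of 76, beside 12.7% and 4.18% of all genes, and with R 57 were higher (76%) and 5 lower (6.67%) of 75, beside 60.5% and 16.4%. These counts moved with the scaling and the libraries. Over all libraries 68 were higher (89.5%) and 0 lower scaled to spike-ins, beside 71.4% and 1.63% of all genes. With median-of-ratios scaling 13 were higher (17.1%) and 9 lower (11.8%), beside 3768 and 2443 of 17196 genes. With a library left out 22 (without RAm3) to 42 (without Am2) were higher, with 23 without RAm1 or RAm2 and 24 without R3, beside 5043 to 7493 of all genes. Scaled to spike-ins, 16 were higher and 1 lower without R, beside 31.5% and 0.77% of all genes. Cdkn1a, Fbxo5, Ska3, Smc2 and Cdca5, which passed at four-cell, were also higher here over all libraries, by 2.17, 2.33, 2.11, 1.26 and 2.10. All 5 passed with R, and none passed without R, where their adjusted p-values were 0.0803 to 0.331 (limma), although Cdkn1a, Fbxo5 and Smc2 passed there once scaled to spike-ins. Of these 5, Smc2 did not pass when RAm1, RAm2, RAm3, NT1, NT2, NT3, r2 or R3 was left out, and Ncapg2 did not when RAm2, NT1 or NT2 was. On FPKM as deposited Ncapg, Mis12, Zwint and Cdc27 did not pass over all libraries, whereas scaled to spike-ins each of them passed as higher. With R, as deposited, Ncapg passed as lower (-0.83, adjusted p = 0.0178) and Zwint as higher (0.71, adjusted p = 0.0323, limma). Zw10 had a log2 change of 1.90 at four-cell and of -1.34 at two-cell (adjusted p = 0.00915, limma). Scaled to spike-ins, Zw10 and Ncapg2 had log2 changes of -0.37 and 0.37 over all libraries and neither passed (adjusted p = 0.446 and 0.399, limma), but within the set without R Zw10 passed as lower on both scales, by -1.81 as deposited (adjusted p = 0.0337) and by -1.35 scaled to spike-ins (adjusted p = 0.0446, limma). Both members that passed at four-cell, Aurka and Sgo2a, also passed at two-cell over all libraries, Sgo2a with a log2 change of 1.15 (adjusted p = 0.0256) that passed with R (1.96, adjusted p = 0.0038) and not without R (0.33, adjusted p = 0.459). Its two-cell FPKM was 4.40, 6.16 and 4.06 untreated and 2.87, 4.08 and 3.97 treated without R, and 6.01, 7.85 and 4.66 and 0.136, 2.35 and 0.572 with R, and without RAm1, RAm3 or r2 it did not pass over all libraries (adjusted p up to 0.0586). The four-cell and two-cell tables were normalized separately, and the stages were not tested against each other.

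In the replication experiment none of the 40 members passed between DR and D, where 0 of 14570 genes (0.0%) passed as higher and 0 as lower by limma with spike-in scaling. At an unadjusted p-value under 0.05 there were 0 members, and 88 of all genes. FPKM were scaled to 19 spike-ins, and the factors ranged from 0.0945 to 5.65 within group D alone, so the standard errors of the members were 1.58 to 2.41 on the log2 scale. The members' median log2 change was -1.26, beside -1.41 for all genes, with each of the 40 members below 0. With FPKM as deposited the median was 0.37 beside 0.02, 36 of 40 were above 0, 10 had an unadjusted p-value under 0.05, as 897 of the 14570 genes had, and 0 passed. The direction of the fitted values thus turned with the scaling, and with spike-in scaling it also rested on library D1, without which 19 of 40 members were above 0 and the median was -0.08.

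The lowest mean FPKM of a member was 1.61 (Fzr1) in D and 2.31 (Cenpf) in DR, and the highest were those of Mad2l1bp in D and of Ccnb1 in DR. Mad2l1bp was at 370, 710 and 398 FPKM in D and 416, 411 and 256 in DR, with overlapping ranges and a log2 change as deposited of -0.42. Aurka was at 77.8, 120 and 58.2 in D and 261, 145 and 177 in DR, without overlap, and its log2 change was 1.20 as deposited (SE 0.34) and -0.47 (SE 2.41) after scaling, which passed in neither fit. On deposited FPKM, every DR library was above every D library for 13 members (32.5%), Bub1b, Bub3, Aurka, Aurkb, Plk4, Cdk1, Cdc25a, Fzr1, Sgo1, Cenpa, Ndc80, Kif20a and Kif23, and below for 0, where 8.21% and 3.99% of all genes tested had such an order. Scaled to spike-ins, the groups overlapped for all 40 members, and DR lay above D for 0.0137% of all genes and below for 0.975%. The groups also differed in depth, 2602782 to 4233523 reads in DR against 6058875 to 19170646 in D, and in the summed FPKM of 11 oocyte and early embryo markers, 3490 to 4120 against 4620 to 5760, although 8 of the 11 were above 0 in the deposited fit with a median of 0.22, and the part of these in the members' order was not tested. Kif20a, for example, was at 14.2, 18.9 and 15.1 FPKM in D and 49.5, 27.5 and 28.8 in DR. No member was under an FPKM of 1 in any library of this experiment.

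**Figure D4:**
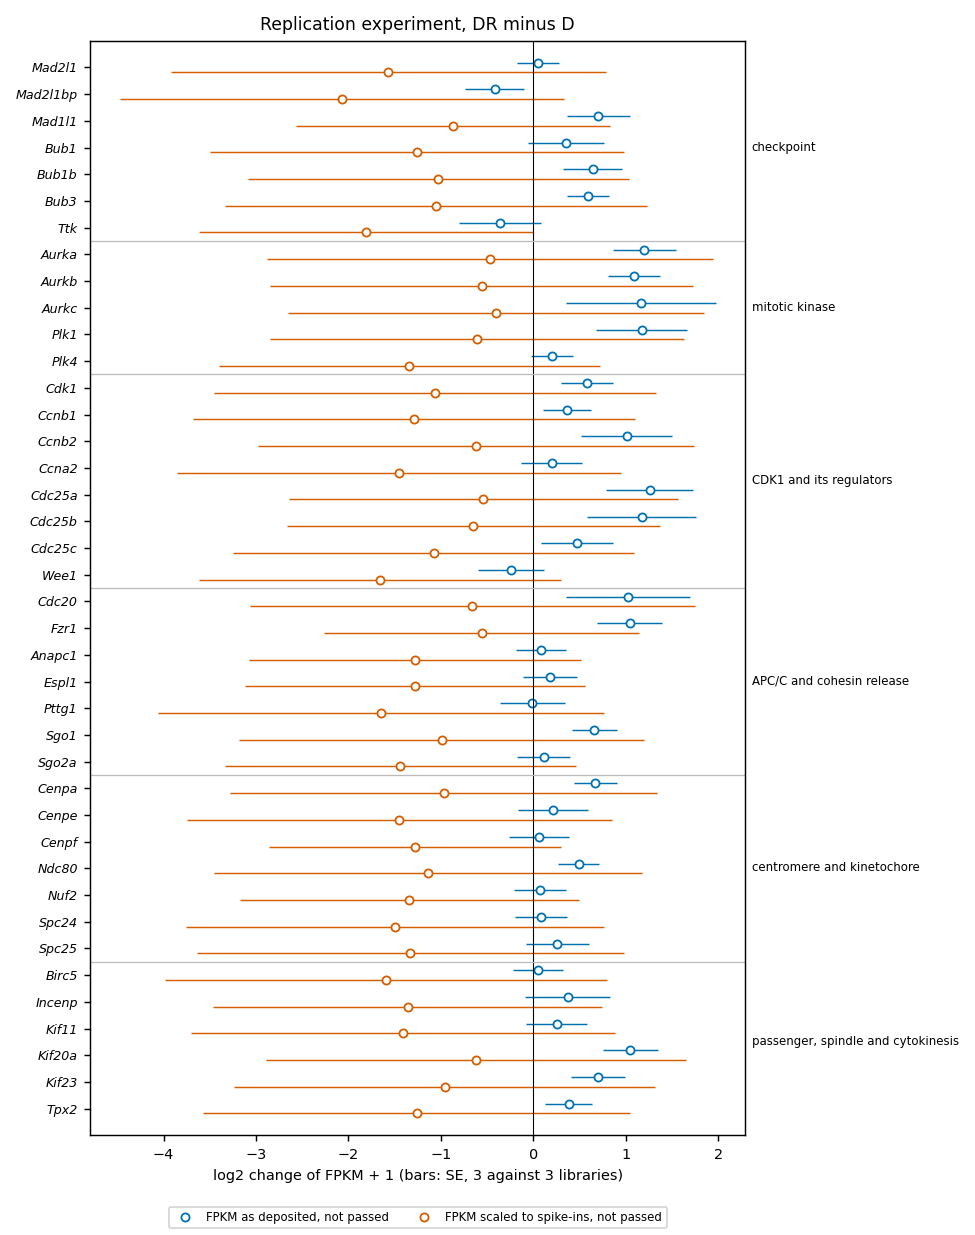
Fitted log2 change of FPKM + 1 (horizontal axis, DR minus D) of the 40 members in the replication experiment, on FPKM as deposited (blue) and scaled to spike-ins (orange), ordered by role, with bars for the SE over 3 against 3 libraries. No point is filled, since no member had an adjusted p-value under 0.05, and the median lies at 0.37 as deposited and at -1.26 after scaling.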

How the data were processed

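RNA of pooled mouse NT embryos was sequenced, and the authors deposited FPKM values per gene, that is, reads per kilobase of gene length and per 1000000 counted reads, one column per library. Per the labels' processing notes, reads were filtered and trimmed with Trimmomatic, Trim Galore and cutadapt, mapped to mm10 with STAR and counted with featureCounts; versions and the strand setting are not given in the sources used here. Of 40 members, 9 share exon bases with a gene of the opposite strand. Groups came from the sample labels, and 4 columns that matched no sample were not used. The table of the oryx experiment was not used, since its identifiers are not paired with gene names.

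FPKM times length gave whole reads (within 0.02) for 100% of four-cell values and for 40.8% to 50.8% in the other tables, so printed read numbers are rounded there. Genes that reached an FPKM of 1 in 3 or more libraries were tested on log2(FPKM + 1) with limma 3.58.1 (R 4.3.3) with a trend in the variance, and p-values were adjusted over all genes tested by the Benjamini-Hochberg method, with a threshold of 0.05. A log2 change is on the log2(FPKM + 1) scale, which understates the change of genes with low values. In the replication table FPKM were first divided by factors from spike-ins found in all libraries. The procedure was tested on simulated data. The p-values measure the spread between pools of a group. In two-cell fits over all libraries without a term for the column set, that spread also includes differences between the column sets.

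The 40 members, the 79 other genes and the marker lists were chosen with earlier results of these data known. Library values are given for members that passed in a contrast and for the most abundant ones, and other genes of the machinery are named where they passed at four-cell. Zw10 and Ncapg2 at two-cell were named after their values were seen. Alternatives were another pseudocount, no filter, other scalings, each library left out, the replicate number as a block and, chosen after seeing the data, the column sets of the two-cell table and the four-cell libraries without S7 and S8. The planned count models were not run, although whole reads could be recovered from the four-cell FPKM.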

Additional observations from a re-analysis of the deposited data

Results flagged for a closer look

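A single library far from the others of its group was found for 6 of 80 groups of 6 two-cell libraries. For libraries of 1 kind chance alone gives about 1 in 20. Each group here joined both column sets, so that rate does not apply. Untreated library NT3 was the lowest for Mad2l1bp at 273 FPKM, for Ccna2 at 91.1 and for Cdc20 at 55. α-Amanitin library RAm2 was the highest for Mad2l1 at 106 FPKM, RAm3 the highest for Ttk at 9.08 and Am3 the highest for Espl1 at 3.37.

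The difference between untreated and α-amanitin libraries itself differed between the column sets for 28 of the 39 members other than Mad2l1bp, by an interaction term fitted with limma over all genes. It was more positive with R for 26 of them, where 36.0% of all genes were more positive and 8.46% more negative. On the log2 scale the excess with R was 4.23 for Cenpa, 4.05 for Bub3, 3.93 for Tpx2, 3.83 for Aurka, 3.79 for Cdk1, 3.71 for Ccnb1, 3.70 for Aurkc, 3.49 for Aurkb and 3.43 for Cdc25c. It was between 2 and 3.1 for the motors Kif11 (3.08) and Kif20a (2.47), the cyclin Ccna2 (3.01), Sgo1 (2.83), Cdc20 (2.75), Spc25 (2.48), Wee1 (2.08), Cenpe (2.06) and Pttg1 (2.00). The smaller ones were Incenp at 1.94, Cenpf at 1.77, Bub1 at 1.76, Birc5 at 1.65, Sgo2a at 1.62, Spc24 at 1.55, Bub1b at 1.37 and Kif23 at 1.17. Plk4 and Nuf2 went the other way, with -1.51 and -1.77, but scaled to spike-ins no member passed as more negative with R. All genes had a median excess of 0.76, and the α-amanitin libraries with R also had the lowest sum of oocyte and early embryo markers, although 7 of the 10 markers were higher with α-amanitin there. The part of these shifts, and of the recipient stage, in these differences was not tested.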

How the results depend on the processing

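With Mad2l1bp counted throughout, at four-cell 1 member was higher with a pseudocount of 0.1, without a filter and with median-of-ratios scaling, and 1 was lower with that scaling. The member that was higher was Mad2l1bp each time, and of the 39 others 0 were. Genes in all numbered 673 higher and 59 lower with the pseudocount of 0.1, 275 and 9 without a filter, 760 and 223 with median-of-ratios scaling, and 188 and 22 in libraries S15 to S18. With each library left out, 1 to 7 members were higher, or 0 to 6 without Mad2l1bp, and of all genes 57 (without S7) to 1362 (without S16) were higher and 6 (without S7) to 131 (without S16) lower. At two-cell, median-of-ratios scaling gave 13 members higher (all genes 3768 higher, 2443 lower), and no filter gave 16 higher and 1 lower (5517 and 983 genes). Spike-in scaling gave 38 higher and 0 lower (12276 and 281 genes), and with the column set as a term 38 and 0 (12481 and 462). The columns without R alone gave 7 and 0 (1814 and 597), and after spike-in scaling 15 members beside Mad2l1bp were higher and 0 lower (4503 and 110 genes). Those with R gave 32 members beside Mad2l1bp higher and 2 lower (8698 and 2353 genes), and after spike-in scaling 37 and 0 members with Mad2l1bp counted (11588 and 784 genes). With each library left out, 16 to 26 members were higher and 1 to 2 lower (5043 to 7493 and 1024 to 1723 genes).

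At two-cell, spike-in scaling raised the members above 0 from 36 to 40 over all libraries, from 29 to 38 without R and from 35 to 38 with R. Of the called ones Plk4 turned to 0.15, also with the column set as a term (0.15), and 0.36 without R, and Nuf2 to 0.20, 0.20 and 0.58. Cenpa was at -0.01 without R. The cause was not tested. For the members called or most abundant in an experiment (6 at four-cell, 25 at two-cell and 4 in replication, Mad2l1bp included), of 675 values under alternatives 546 kept direction and side of the threshold, 112 lost and 10 gained significance and 7 turned. With the replicate block, 20 members were higher and 1 lower at two-cell (6027 and 1344 of all genes), but same-numbered libraries shared only a number (correlations 0.015 to 0.065). No paired analysis was run at four-cell or in the replication experiment. The four-cell columns carry library numbers, and whether neighbouring numbers mark pairs is not stated. The D and DR columns share only number 1. A term for recipient time and the planned count models were not run. Depth limits low values, with 4 to 15 reads for Sgo2a in treated four-cell libraries and 0 to 7 for Bub3 in treated two-cell libraries with R.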
